A study of Rattus norvegicus with 12 samples.

Results

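The genes of the MHC class II antigen presentation pathway were examined in the rat pubocaudalis, one of the muscles of the pelvic floor, after simulated birth injury (SBI) with or without lactation. The set held 10 genes chosen by name: both chains of the 2 classical class II molecules (RT1-Da, RT1-Db1, RT1-Ba, RT1-Bb), both chains of the peptide exchange molecule (RT1-DMa, RT1-DMb), the invariant chain Cd74, the class II transactivator Ciita, and the costimulators Cd86 and Cd80. These were 10 of the 30206 genes in the deposited table, and 10 of 10 passed the low-count filter, which kept 14599 genes. The rule used names, not measured values, although the genes were chosen with earlier results of these data known.

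The rats were 3-month-old female Sprague-Dawley rats, an outbred stock, and every group had been pregnant and had received SBI, a balloon distention of the vagina in late gestation. In the 1wk SBI and 3wk SBI groups the pups were taken away after delivery, so these rats did not lactate; in the 1wk SBI + Lac and 3wk SBI + Lac groups the dams nursed. Muscle was taken at 1 week or 3 weeks. Each group had 3 libraries, and each library held pooled RNA of 2 rats, so a value of a library is that of a pool and the spread between single rats was not measured. No uninjured muscle was sequenced, so the comparisons concern lactation and time among injured rats, not injury.

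Library totals ran from 10082734 to 75634391 reads. At 1 week each of the non-lactating libraries was deeper than each of the lactating ones, and at 3 weeks totals differed up to severalfold within both groups. The 1-week values were whole counts, whereas the 3-week values carried decimals, so time and counting cannot be told apart between the weeks. Skeletal muscle markers (Acta1, Ckm, Myh2, Myh4, Mb and Tnnt3 had a row, Myh1 had none) were abundant in each library, summing to between 67700 and 175000 normalised read counts (CPM, counts scaled to a common library total with TMM factors). Milk protein genes (Csn2, Csn1s1, Csn3, Wap and Lalba) were at 0 in all 1wk SBI libraries and summed to at most 0.012 CPM in the 3wk SBI libraries, against 0.59 to 2.75 CPM in 1wk SBI + Lac and 0.22 to 33.5 CPM in 3wk SBI + Lac.

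MHC class II molecules are displayed by dendritic cells, macrophages and B cells, which use them to show peptides from engulfed proteins to CD4 T cells. An alpha and a beta chain assemble around the invariant chain, proteases of the endosome trim the invariant chain to a small fragment, and the DM molecule exchanges that fragment for a peptide. Ciita does not bind DNA itself; it is recruited by the RFX, CREB and NF-Y factors, which sit on the conserved X1, X2 and Y boxes of class II promoters, and its own amount sets much of class II transcription. Injured muscle draws in macrophages and other leukocytes, and resting myofibres are not known as a main source of class II.

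The promoters are shown because the genes below moved together across libraries and the X and Y boxes are the sequence feature that class II genes are known to share. RefSeq promoter windows of build GRCr8, running from 250 bases before to 50 bases after the annotated start, were found for 8 of the 10 genes; RT1-DMb and Ciita had none. The 150 bases before the start are given for 5 genes of the class II region on chromosome 20, each 5′ to 3′ on the strand of the gene, and capitals mark the letters GCAACNG (X1 core) or ATTGG (Y core) on either strand, the latter reading CCAAT when it lies on the other strand.
RT1-Da, chr20:4515265-4515414, plus strand: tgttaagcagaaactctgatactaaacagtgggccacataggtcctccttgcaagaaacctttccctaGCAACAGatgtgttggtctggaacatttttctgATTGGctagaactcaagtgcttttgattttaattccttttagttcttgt
RT1-Db1, chr20:4560163-4560312, minus strand: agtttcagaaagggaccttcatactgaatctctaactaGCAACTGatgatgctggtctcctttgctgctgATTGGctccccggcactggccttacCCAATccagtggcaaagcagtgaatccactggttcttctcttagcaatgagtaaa
RT1-Ba, chr20:4576907-4577056, plus strand: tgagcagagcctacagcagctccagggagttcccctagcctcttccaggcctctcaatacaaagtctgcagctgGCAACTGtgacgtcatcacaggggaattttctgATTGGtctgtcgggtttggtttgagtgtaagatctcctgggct
RT1-Bb, chr20:4604119-4604268, minus strand: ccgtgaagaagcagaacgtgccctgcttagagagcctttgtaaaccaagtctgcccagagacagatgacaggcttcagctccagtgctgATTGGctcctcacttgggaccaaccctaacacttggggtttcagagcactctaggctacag
RT1-DMa, chr20:4712336-4712485, minus strand: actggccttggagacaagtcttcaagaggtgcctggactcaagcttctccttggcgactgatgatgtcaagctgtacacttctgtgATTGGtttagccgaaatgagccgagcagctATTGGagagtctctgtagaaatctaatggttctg
The X1 letters began 82 bases before the start of RT1-Da, 112 before RT1-Db1 and 76 before RT1-Ba, and the Y letters on the same strand began 49, 80 and 43 bases before the start. The first bases of both elements were thus 33 bases apart in RT1-Da, 32 in RT1-Db1 and 33 in RT1-Ba. RT1-Bb held the Y letters at 61 bases and RT1-DMa at 64 and 34 bases before the start, without the X1 letters. Of the 8 genes with a window, 4 held X1 and 7 held Y, beside 12.2% and 37.5% of all 33469 windows of 300 bases; 4 held both, beside 4.37%. The fourth gene with X1 was Cd80, which has 2 windows and held the X1 letters only on the other strand, in one of them 15 bases past the start. The X2 letters searched, TGNGTCA, were in 0 of the 8 and in 14.5% of all windows. Longer forms were not searched, among them TGACGTCA, which stands directly after the X1 letters in the RT1-Ba sequence above. The 0 thus counts these letters only and does not show that X2 boxes are absent. A match of letters is a description of sequence, not a measurement of binding.

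The first comparison asked how nursing went together with class II transcript levels at 1 week after injury. In the 1-week muscle, 10 of 10 genes had lower fitted levels in lactating than in non-lactating rats, with log2 fold changes from -1.85 to -0.38 and a median of -0.63, against a median of -0.004 over all 14599 genes. None of the 10 passed the adjusted p cutoff of 0.05 in edgeR's quasi-likelihood test (a gene was called when it also moved by more than 1 on the log2 scale), where 0.253% of all genes were called. At an unadjusted p under 0.05, 2 of 10 were lower, beside 9.16% of all genes. In 7 of 10 each lactating library lay below each non-lactating one, beside 14.1% of all genes. The 10 genes share cells and libraries, so these counts are not independent observations.

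**Figure D1:**
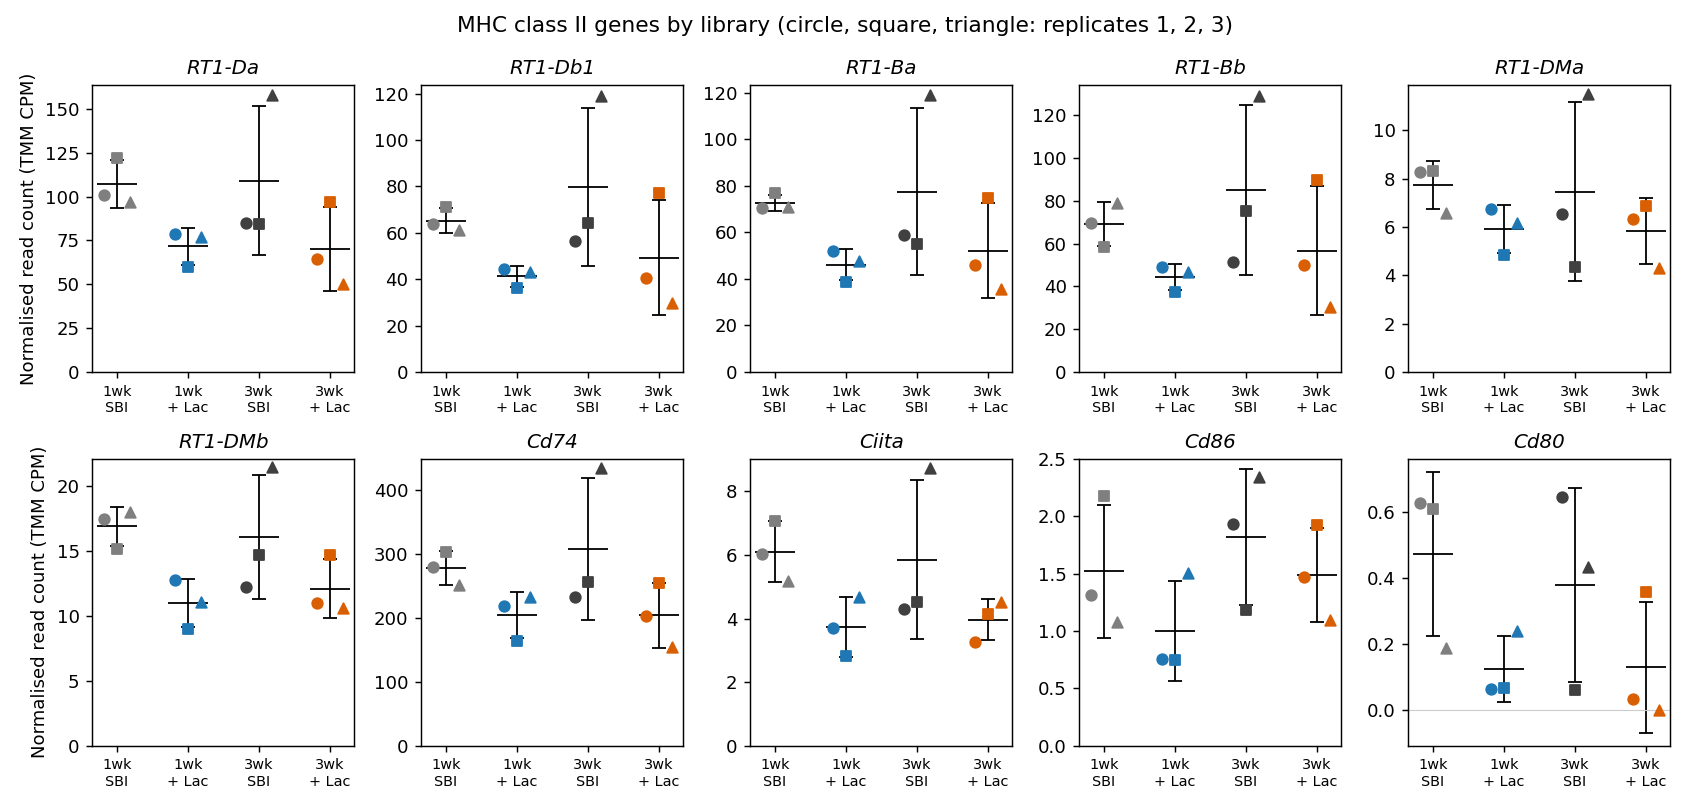
Normalised read counts (TMM CPM, linear axes) of the 10 MHC class II genes in each of the 12 libraries, by group; symbols are libraries, black bars the mean ± SD of 3 libraries. At 1 week 7 genes have groups that do not overlap, whereas at 3 weeks the third SBI library stands high, as in Cd74 at 435 CPM beside 233 and 256.

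The RT1-D chains form the rat molecule that corresponds to human HLA-DR. The alpha chain RT1-Da was at 101, 122 and 96.6 CPM in the 1wk SBI libraries and at 78.7, 59.7 and 76.9 CPM in 1wk SBI + Lac. The groups did not overlap, and the log2 fold change was -0.57 ± 0.27 (SE, n = 3 libraries per group; edgeR adjusted p = 0.276), a ratio of 0.674. The beta chain RT1-Db1 was at 63.7, 71.1 and 61 CPM in non-lactating and 44.6, 36 and 42.9 CPM in lactating libraries, again without overlap. Its log2 fold change was -0.66 ± 0.34 (edgeR adjusted p = 0.315).

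The RT1-B chains form the molecule that corresponds to HLA-DQ. RT1-Ba, the alpha chain, was at 70.6, 76.8 and 71 CPM in 1wk SBI and at 52.2, 38.8 and 47.6 CPM in 1wk SBI + Lac. This log2 fold change of -0.66 ± 0.31 had an edgeR adjusted p of 0.28, and the SD among the non-lactating libraries was only 3.44 CPM around a mean of 72.8. RT1-Bb, the beta chain, was at 69.8, 58.5 and 78.9 CPM against 49.2, 37.6 and 46.5 CPM (log2 fold change -0.64 ± 0.39, edgeR adjusted p = 0.404). Its groups did not overlap either.

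Cd74, the invariant chain that occupies the groove during assembly, was at 280, 303 and 251 CPM in 1wk SBI and at 219, 164 and 232 CPM in 1wk SBI + Lac. The highest lactating library lay just under the lowest non-lactating one, and the log2 fold change was -0.44 ± 0.23 (edgeR adjusted p = 0.315). The DM chains load the peptide. RT1-DMb was at 17.5, 15.2 and 18 CPM against 12.8, 9.02 and 11.1 CPM, with the smallest p of the 10 genes (log2 fold change -0.62 ± 0.19, unadjusted p = 0.00541, edgeR adjusted p = 0.108). RT1-DMa was at 8.27, 8.33 and 6.58 CPM against 6.75, 4.85 and 6.16 CPM, and its groups overlapped (log2 fold change -0.38 ± 0.28, edgeR adjusted p = 0.468).

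Ciita, the transactivator, was at 6.02, 7.08 and 5.18 CPM in 1wk SBI and at 3.71, 2.81 and 4.68 CPM in 1wk SBI + Lac. The groups did not overlap, and the log2 fold change of -0.70 ± 0.26 gave an unadjusted p of 0.018 and an edgeR adjusted p of 0.17. The costimulators Cd86 and Cd80 give the CD28 receptor of T cells its second signal and had the fewest reads of the set. Cd86 was at 1.31, 2.18 and 1.08 CPM against 0.754, 0.746 and 1.51 CPM, with overlap (log2 fold change -0.59 ± 0.39, edgeR adjusted p = 0.428). Cd80 had 39, 36 and 8 counts in non-lactating and 2, 2 and 10 counts in lactating libraries. It had the largest fold change of the 10 and the widest error (log2 fold change -1.85 ± 0.89, edgeR adjusted p = 0.275), and its groups overlapped.

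The adjusted p at 1 week depended on which libraries estimated the spread. When edgeR was fitted on the 6 libraries of the 1-week comparison alone, 3 of 10 genes had an adjusted p under 0.05 (RT1-Db1 0.033, RT1-Ba 0.0334 and RT1-Bb 0.0492), beside 1.34% of genes that did so in the lower direction. DESeq2, the tool used by the study, gave adjusted p under 0.05 for 7 of 10 on those 6 libraries, all but RT1-DMa, Cd86 and Cd80, beside 5.21% of genes lower. On all 12 libraries DESeq2 gave 0 of 10, with 1 gene (Cd80) left without an adjusted p. None of the 10 passed the fold cutoff together with the adjusted p in any of these fits. RT1-Da, for example, had SDs of 13.8 and 10.5 CPM in the 1-week groups, and of 42.4 and 24 CPM in the 3-week groups that enter the fit on all 12 libraries.

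The same question, for the end of nursing, was asked of the 3wk libraries. Again 10 of 10 genes had lower fitted levels in lactating rats (log2 fold changes -1.02 to -0.26, median -0.59, against -0.019 over all genes), and 0 of 10 were called by edgeR, beside 0.74% of all genes. At an unadjusted p under 0.05, 4 of 10 were lower (RT1-Da, RT1-DMb, Cd74 and Ciita), beside 11.2% of all genes. Here 0 of 10 had groups without overlap, beside 10.4% of all genes lower in that way. DESeq2 on the 6 libraries gave 0 of 10 at an adjusted p under 0.05, beside 2.6% of genes lower, and 0 of 10 on all 12 libraries.

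Cd74 was at 233, 256 and 435 CPM in 3wk SBI and at 203, 255 and 154 CPM in 3wk SBI + Lac (log2 fold change -0.60 ± 0.23, unadjusted p = 0.0232, edgeR adjusted p = 0.164). The third SBI library stood far above the other 5. RT1-Da repeated this at 85.2, 84.5 and 158 CPM against 64.2, 96.7 and 49.9 CPM (log2 fold change -0.64 ± 0.27, edgeR adjusted p = 0.209). RT1-Db1 was at 56.4, 64.1 and 119 CPM against 40.6, 77.1 and 29.8 CPM (log2 fold change -0.69 ± 0.34, edgeR adjusted p = 0.279). In both D chains the second lactating library exceeded 2 of the 3 non-lactating ones.

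RT1-Ba was at 58.7, 54.9 and 119 CPM in 3wk SBI and at 46.2, 74.9 and 35.5 CPM in 3wk SBI + Lac (log2 fold change -0.57 ± 0.31, edgeR adjusted p = 0.329). RT1-Bb was at 51.5, 75 and 129 CPM against 50.2, 89.7 and 30.3 CPM (log2 fold change -0.58 ± 0.39, edgeR adjusted p = 0.434). The same libraries were high as for the D chains. RT1-DMb was at 12.2, 14.7 and 21.5 CPM against 11, 14.7 and 10.6 CPM (log2 fold change -0.43 ± 0.20, edgeR adjusted p = 0.231), and RT1-DMa was at 6.54, 4.33 and 11.5 CPM against 6.35, 6.86 and 4.29 CPM (log2 fold change -0.37 ± 0.29, edgeR adjusted p = 0.484). For the DM chains too the non-lactating group was spread over a wider range than the lactating one.

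Ciita was at 4.29, 4.52 and 8.73 CPM in 3wk SBI and at 3.26, 4.13 and 4.51 CPM in 3wk SBI + Lac (log2 fold change -0.64 ± 0.28, edgeR adjusted p = 0.2). Apart from the third SBI library, its values in both groups lay within 3.26 to 4.52 CPM. Cd86 was at 1.93, 1.18 and 2.34 CPM against 1.47, 1.92 and 1.1 CPM (log2 fold change -0.26 ± 0.40, edgeR adjusted p = 0.753). Cd80, with 6, 1 and 36 counts against 1, 22 and 0, had a log2 fold change of -1.02 ± 0.93 (edgeR adjusted p = 0.557). A count of 0 in the last library allows up to 3 counts, or 0.33 CPM, for counting error alone.

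**Figure D2:**
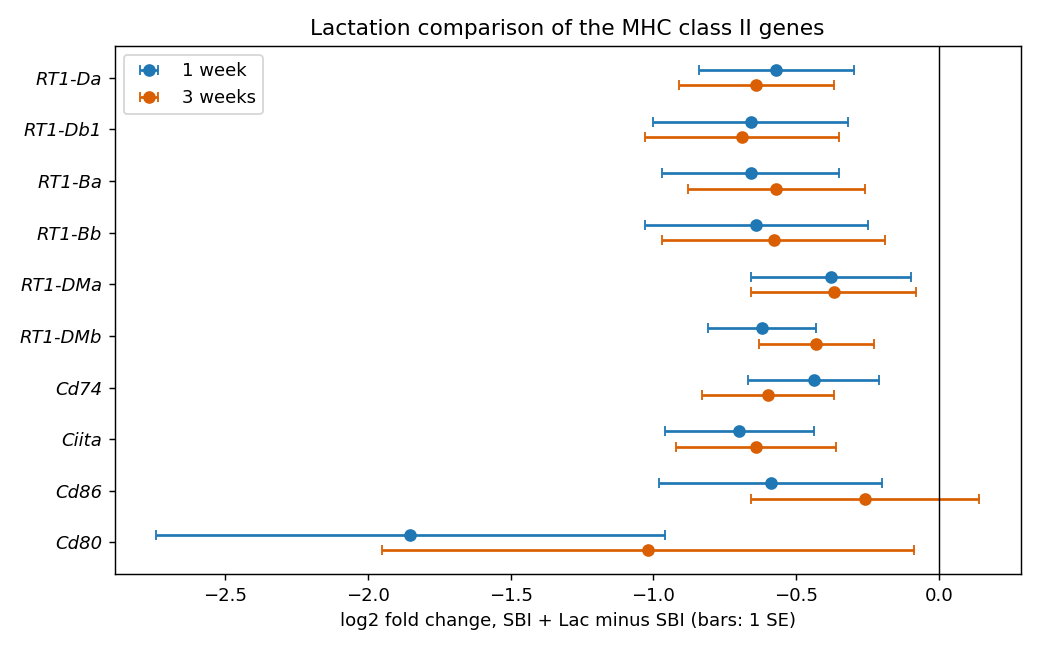
Log2 fold change of lactating minus non-lactating rats for each of the 10 genes at 1 week (blue) and 3 weeks (orange), from edgeR on all 12 libraries; bars are 1 SE. The 20 points lie left of 0, from -1.85 for Cd80 at 1 week to -0.26 for Cd86 at 3 weeks.

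The 3-week values rested largely on 1 library. The 10 genes summed to 511, 560 and 1000 CPM in the 3wk SBI libraries and to 426, 621 and 320 CPM in 3wk SBI + Lac. Without the third SBI library the median log2 fold change of the 10 was -0.157 in place of -0.59, RT1-DMa turned to 0.178 and Cd86 to 0.0387. Leaving out any other 3-week library kept the median between -0.859 and -0.386. At 1 week the median stayed between -0.707 and -0.514 whichever of the 6 libraries was left out.

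The lactation effect at 3 weeks did not differ detectably from that at 1 week. The difference of both effects ran from -0.15 (Cd74) to 0.82 (Cd80) with a median of 0.06, each edgeR adjusted p was at least 0.999, and 0 of 10 had an unadjusted p under 0.05 (0 called by DESeq2; 0.00685% of all genes called by edgeR). With SEs from 0.27 to 1.29 on these differences, smaller shifts between the weeks could not be seen. Without the third 3wk SBI library the median difference was 0.511.

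Between the weeks, the 10 genes changed little in comparison with their spread. In non-lactating rats the 3-week minus 1-week log2 fold changes ran from -0.37 (Cd80) to 0.32 (RT1-Bb), median 0.08; in lactating rats they ran from -0.02 (RT1-Da) to 0.61 (Cd86), median 0.18. None of the 10 was called in either by edgeR, 0 had an unadjusted p under 0.05, and DESeq2 called 0, beside 1.46% and 0.774% of all genes called by edgeR. Leaving out the third 3wk SBI library gave a median of -0.324 in non-lactating rats, and leaving out the second 3wk SBI + Lac library gave -0.141 in lactating rats, so the sign of both rested on 1 deep library. Both comparisons share their 1-week and 3-week libraries with the lactation comparisons.

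Class II levels went with sequencing depth at 3 weeks. The deepest library of each 3-week group held the highest value for 9 of 10 genes (all but Cd80 in SBI and all but Ciita in SBI + Lac). The shares over all genes were 35.7% in SBI and 29.7% in SBI + Lac. In both groups at once 8 of 10 were highest there, beside 13.9% of all genes. In 3wk SBI + Lac, 9 of 10 genes followed the order of the library totals, beside 18.8% of all genes; in 3wk SBI 5 of 10 did, beside 20.2%, and 4 of 10 did in both, beside 5.62%. In the 1-week groups 1 of 10 did in each, beside 20.4% and 16.4%. At 1 week the deepest library was highest for 1 of 10 genes in SBI and for 4 of 10 in SBI + Lac, beside 34.4% and 32.7% of genes.

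With the library total as a further term in the fit, chosen after these values were seen, 5 genes rose with depth at an edgeR adjusted p under 0.05, by 0.34 (RT1-Da), 0.43 (RT1-Db1), 0.38 (RT1-Ba), 0.48 (RT1-Bb) and 0.30 (Cd74) on the log2 scale per doubling of reads, beside 2.01% of all genes. Without the third 3wk SBI library, or with the 1-week libraries alone, no gene of the whole table passed, so these fits could not show a depth term for the class II genes. With the 3-week libraries alone 6 of the 9 tested did, beside 2.07% of all genes. In the fit with this term, 6 of 10 genes had an adjusted p under 0.05 for lactation at 3 weeks (RT1-Da, RT1-Db1, RT1-Ba, RT1-Bb, RT1-DMb and Cd74, from -0.85 to -0.49), beside 5.65% of genes lower, and 0 of 10 did at 1 week. Leaving out 1 library at 3 weeks from that fit gave 5 to 7 genes, beside 1.34% to 4.36% of all genes lower, except without the third SBI library, where 1 of 10 passed beside 0.251%. Totals differed between the groups at 1 week, so depth and lactation cannot be told apart there.

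**Figure D3:**
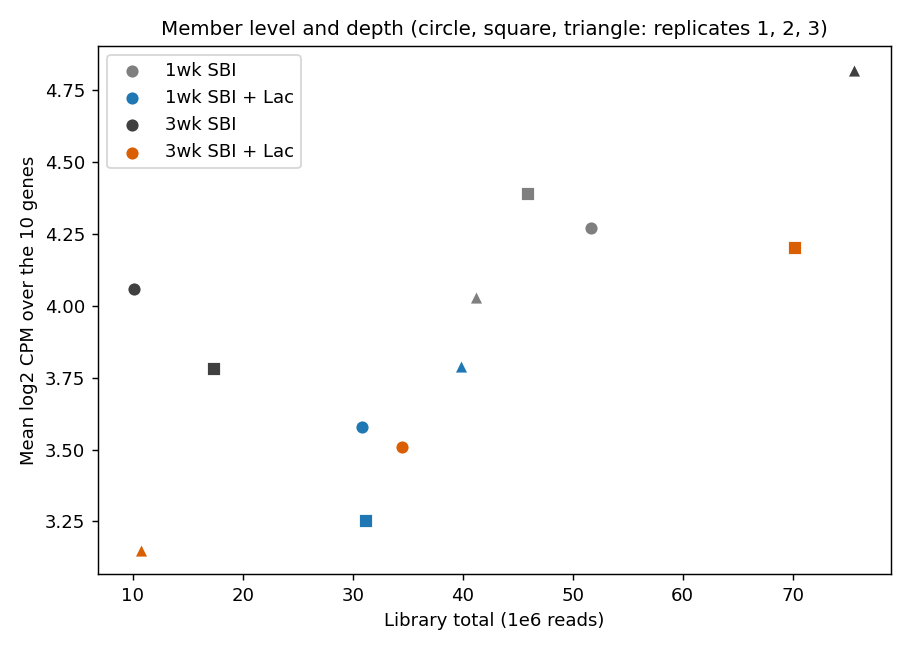
Mean log2 CPM over the 10 genes (vertical axis) against the library total (horizontal axis, in units of 1e6 reads) for the 12 libraries, coloured by group; symbols give the replicate. The deepest library, the third 3wk SBI one, has the highest mean, 4.82, and the second 3wk SBI + Lac library is the highest of its group at 4.20.

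The 10 genes varied together within groups. After each group's mean was taken off the log2 CPM, the Pearson correlation over the 12 libraries ran from 0.40 to 0.98 (median 0.85) among the 28 pairs of the 8 genes other than Cd86 and Cd80, and from 0.26 to 0.98 (median 0.68) over all 45 pairs. The closest pair was RT1-Da with RT1-Ba, r = 0.98, and Cd86 and Cd80 were closer to each other (0.82) than either was to any other gene of the set. Libraries, depth and cells are shared by these points, so the values are given as a description. The ratio of RT1-Ba to RT1-Da had an SD within groups of 0.09 on the log2 scale, and that of RT1-Da to Cd74 of 0.10. Ciita kept less close company, with r from 0.34 to 0.73 to the other 9, and its log2 ratio to Cd74 was lower in each lactating than each non-lactating library at 1 week (difference -0.27) but differed by 0.08, with overlap, at 3 weeks.

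The 5 genes outside the set whose group-centred pattern was most like the mean of the 10 were Nckap1l (r = 0.984), Irf8 (0.976), Tlr2 (0.964), Ptprc (0.959) and Il17ra (0.959), over 12 libraries, beside a median r of 0.02 over all other genes tested. Nckap1l encodes a subunit of an actin regulator of blood cells, Irf8 a transcription factor of dendritic cells and macrophages, Tlr2 a receptor for bacterial lipoproteins, Ptprc the leukocyte antigen CD45 and Il17ra a receptor for interleukin 17. Irf8 was at 16.8, 18.8 and 14.7 CPM in 1wk SBI and at 6.59, 4.75 and 7.53 CPM in 1wk SBI + Lac (log2 fold change -1.41 ± 0.44, edgeR adjusted p = 0.125). At 3 weeks it was at 6.11, 5.57 and 14.5 CPM against 2.44, 6.73 and 1.76 CPM (log2 fold change -1.19 ± 0.46, edgeR adjusted p = 0.173).

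Markers of the cells that carry class II were read beside these values. Ptprc was at 21.1, 26.4 and 19.3 CPM in 1wk SBI and at 14.8, 8.98 and 13.9 CPM in 1wk SBI + Lac, a log2 fold change of -0.82 ± 0.31 (edgeR adjusted p = 0.189), and of -0.80 ± 0.32 at 3 weeks (adjusted p = 0.188). Of 9 dendritic cell markers 9 were lower at both weeks (medians -1.29 and -1.01). With edgeR on all 12 libraries 0 were called at 1 week and 1, the growth factor receptor Flt3, at 3 weeks. At 1 week 5 were lower at an unadjusted p under 0.05, beside 9.16% of all genes. The paper, which used DESeq2, names Itgax, Clec9a, Irf8 and Ccr7 among the genes higher in non-lactating rats at 1 week. Flt3 was at 2.36, 2.97 and 2.62 CPM in 3wk SBI and at 0.521, 1.15 and 1.1 CPM in 3wk SBI + Lac (log2 fold change -1.54 ± 0.37, edgeR adjusted p = 0.0408). Its edgeR adjusted p was above 0.05 when any 3-week library but the first SBI one was left out (0.0689 to 0.146). The same was so when edgeR was fitted on the 6 libraries of the comparison (0.0816). For Flt3 at 3 weeks DESeq2 gave adjusted p of 0.0032 on all 12 libraries and 0.0193 on those 6.

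Of 10 macrophage markers, 9 were lower at 1 week and 10 at 3 weeks (median -0.35 both times), and 1, the lysosomal glycoprotein Cd68, was called at 3 weeks. Cd68 was at 33.5, 26.8 and 27 CPM in 1wk SBI against 16.1, 11.7 and 17 CPM in 1wk SBI + Lac (log2 fold change -0.96 ± 0.19, edgeR adjusted p = 0.0417), and at 17.2, 18.3 and 27.7 CPM against 8.69, 12 and 9.45 CPM at 3 weeks (log2 fold change -1.08 ± 0.20, edgeR adjusted p = 0.015). The 3-week call was lost without the third SBI library or without the first or the third lactating one (adjusted p 0.0541, 0.0804 and 0.0606). The 1-week adjusted p was above 0.05 when any 1-week library but the third SBI one was left out (0.066 to 0.197). The log2 ratio of Cd74 to Ptprc, lactating minus non-lactating, differed by 0.39 at 1 week, without overlap, and by 0.19, with overlap, at 3 weeks. That of Cd74 to Cd68 differed by 0.52 and 0.48, without overlap at both weeks. Cd68 had the lowest log2 fold change of the 10 macrophage markers at both weeks. At 1 week Csf1r (-0.31), Mrc1 (-0.32), C1qb (-0.39), C1qc (-0.21), Mertk (-0.22) and Cd163 (0.19) lay above Cd74 (-0.44). Adgre1 (-0.67), Lyz2 (-0.63) and C1qa (-0.47) lay below it. At 3 weeks each of these markers lay above Cd74 (-0.60). Ratios to the other macrophage markers were not taken. The ratio of Cd74 to the class I light chain B2m differed by -0.34 and -0.14, with overlap at both.

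B cell markers were sparse: Cd79a, Blk and Ighm passed the filter, whereas Ms4a1, Cd79b, Pax5 and Cr2 were below it. Ighm, the immunoglobulin heavy chain of IgM, was at 4.37, 5.58 and 4.17 CPM in 1wk SBI and at 3.02, 0.475 and 1.98 CPM in 1wk SBI + Lac. At 3 weeks it was at 4.4, 3.59 and 294 CPM in SBI and at 58.5, 240 and 4.51 CPM in SBI + Lac; it is singled out after its values were seen. The third SBI library and the second lactating one, where Ighm was highest, were the deepest of the series and those with the most class II transcript in their groups. The 5 T cell markers were sparse too, summing to between 0.11 and 6.73 CPM in the 12 libraries. Their fitted levels were lower at both weeks (medians -0.82 and -0.80, 0 called and 0 at an unadjusted p under 0.05 by edgeR). At both weeks 0 of 5 had groups without overlap, beside 14.1% and 10.4% of all genes lower in that way.

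Skeletal muscle markers went the other way at 1 week, with 6 of 6 higher (median 0.49), and 4 of 6 higher at 3 weeks (median 0.32); edgeR called 0, with 4 and 1 at an unadjusted p under 0.05. Their sum was lowest, 67700 CPM, in the 1wk SBI library with the most class II among the 1-week libraries, and in 3wk SBI it was lowest, 105000 CPM, in the third library. In 1wk SBI + Lac it was lowest, 108000 CPM, in the third library, where class II summed to 469 CPM beside 467 and 353. The 3wk SBI + Lac group went the other way: the muscle sum was highest, 175000 CPM, in the second library, which had the most class II (621 CPM). Endothelial markers Pecam1, Cdh5 and Vwf had medians of -0.06 and -0.09 (0 called by edgeR, and 0 and 1 at an unadjusted p under 0.05). By staining at the earlier time point sequenced here, the paper found no significant difference between the groups in CD68+ or CD163+ macrophages. For CD45+ cells the paper reports the level of uninjured controls in lactating rats and a higher level in non-lactating rats. Whether Cd68 and Ptprc RNA followed cell numbers was not tested. In bulk muscle RNA, fewer class II cells and less class II RNA per cell cannot be told apart. The part of the marker shifts in the class II values was not tested.

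**Figure D4:**
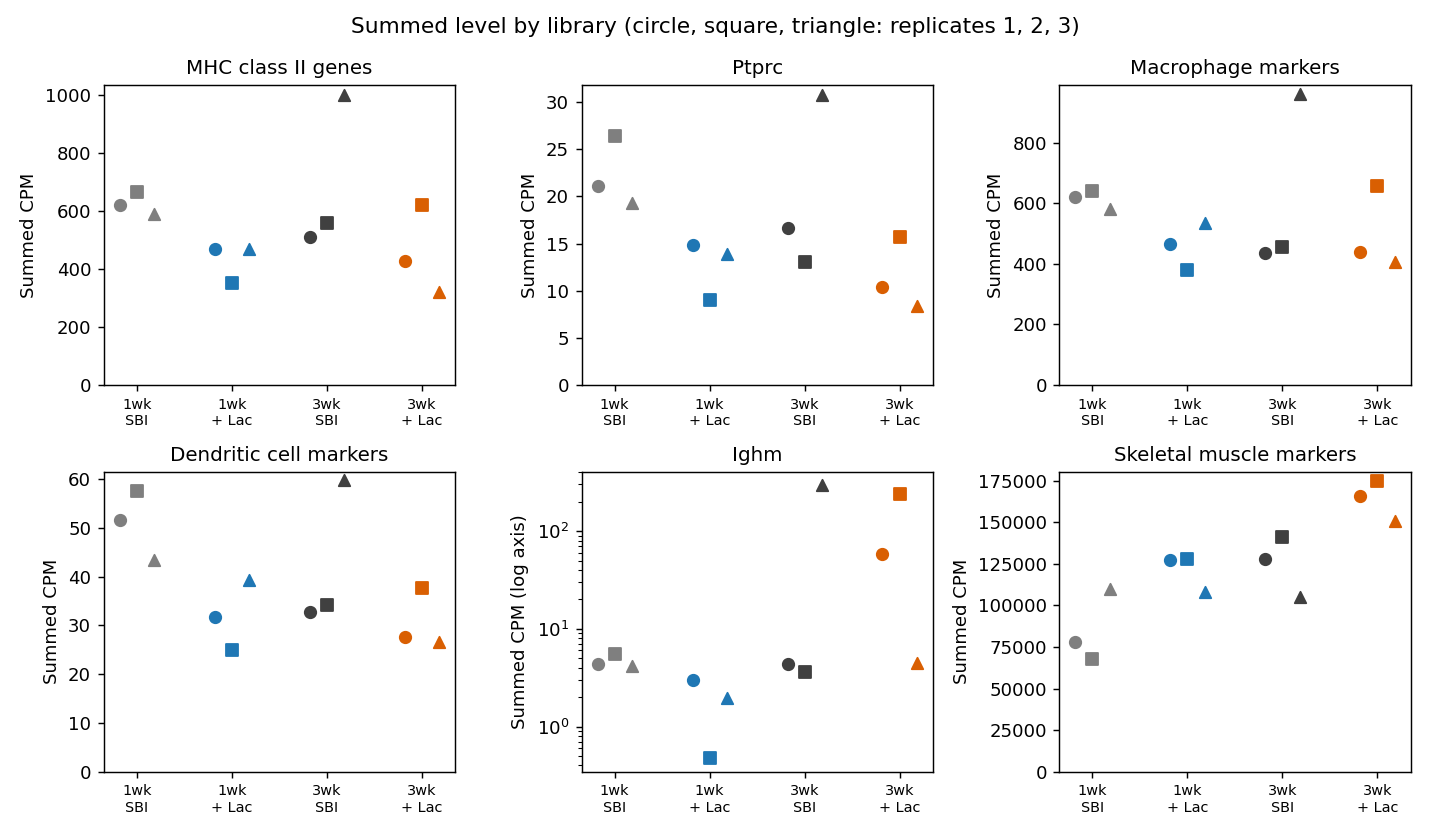
Summed TMM CPM in each of the 12 libraries for the 10 MHC class II genes, for Ptprc, for Ighm (log axis) and for the macrophage, dendritic cell and skeletal muscle markers; symbols are replicates. The third 3wk SBI library is the highest for the class II genes (1000), Ptprc (30.7), the macrophage markers (961) and Ighm (294).

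Around the class II molecules, genes of peptide processing and turnover were mostly lower too: 8 of 9 at 1 week (median -0.60) and 7 of 9 at 3 weeks (median -0.37), with 0 called by edgeR at either. At an unadjusted p under 0.05, 2 and 3 were lower, beside 9.16% and 11.2% of all genes. Lgmn, an endosomal protease that starts the cleavage of the invariant chain, was at 99.4, 109 and 75.4 CPM in 1wk SBI against 57.9, 52.3 and 64.4 CPM (log2 fold change -0.70 ± 0.15, edgeR adjusted p = 0.0522). At 3 weeks it was at 55.8, 52 and 76.9 CPM against 46, 44.8 and 40.9 CPM (log2 fold change -0.49 ± 0.16, edgeR adjusted p = 0.097). Its groups did not overlap at either week, beside 14.1% and 10.4% of all genes lower in that way. Ifi30, a thiol reductase that unfolds antigen in the endosome, had log2 fold changes of -0.70 ± 0.25 and -0.76 ± 0.27 (edgeR adjusted p = 0.165 and 0.133). Sppl2a, which cuts the last invariant chain fragment out of the membrane, was the member that was higher at 1 week, at 25, 26.1 and 27 CPM against 17.7, 21.6 and 20.7 CPM (log2 fold change 0.38 ± 0.12, edgeR adjusted p = 0.109).

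The factors that recruit Ciita to DNA had medians near 0. Of the 7 genes of the RFX, NF-Y and CREB complex, 2 were lower at 1 week (Nfya and Creb1) and 2 at 3 weeks (Rfx5 and Creb1), with medians of 0.04 and 0.03; 0 were called by edgeR, and at an unadjusted p under 0.05 1 was higher at 1 week, and 1 was lower and 1 higher at 3 weeks. Rfxank, an RFX subunit, was at 8.92, 7.32 and 7.64 CPM in 1wk SBI + Lac and at 5.01, 5.36 and 4.78 CPM in 1wk SBI (log2 fold change 0.65 ± 0.15, edgeR adjusted p = 0.0556). It had a log2 fold change of 0.03 ± 0.15 at 3 weeks. Creb1 had one of -0.12 ± 0.09 at 1 week, and at 3 weeks the RFX subunits Rfx5 and Rfxap had -0.33 ± 0.13 and 0.28 ± 0.13 (edgeR adjusted p = 0.169 and 0.225).

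Interferon gamma is the classical inducer of Ciita. Its own gene, Ifng, was at 0 in 9 of 12 libraries and at most at 0.144 CPM, and was not tested. Of 6 genes of its signalling tested, 2 were lower at 1 week and 4 at 3 weeks (medians 0.01 and -0.16), with 0 called by edgeR and 0 at an unadjusted p under 0.05. The receptor chain Ifngr1 had log2 fold changes of -0.19 ± 0.12 and -0.24 ± 0.13, the kinase Jak2 had -0.28 ± 0.18 at 1 week, and the feedback inhibitor Socs1 had -1.10 ± 0.52 at 3 weeks (edgeR adjusted p = 0.24).

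Among the T cell receptors for class II cells and the further costimulators, 6 of 7 tested were lower at both weeks (medians -0.72 and -1.40); Cd4 had no row, and Ctla4 and Cd40lg were below the filter. Cd28, the receptor for Cd80 and Cd86, fell at 3 weeks and was the 1 gene called, at 12.7, 6.63 and 12 CPM in 3wk SBI and 3.26, 2.13 and 2.53 CPM in 3wk SBI + Lac (log2 fold change -1.99 ± 0.38, edgeR adjusted p = 0.0219). At 1 week it was at 23.6, 12.2 and 11.1 CPM against 9.64, 4.58 and 7.45 CPM (log2 fold change -1.12 ± 0.34, edgeR adjusted p = 0.114). DESeq2 called Cd28 at 1 week, at -1.11 on all 12 libraries and on the 6 compared (DESeq2 adjusted p = 0.023 and 0.0112). It also did so at 3 weeks, at -1.98 and -1.99 (DESeq2 adjusted p = 4.3e-06 and 3.3e-08). The Cd28 groups did not overlap at either week, beside 14.1% and 10.4% of all genes lower in that way. In edgeR the 3-week call was lost without the third SBI library or any 1 of the 3 lactating libraries (edgeR adjusted p 0.0647 to 0.111).

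Genes of the MHC class I pathway were compared alongside, among them B2m, RT1 class I genes of several families and genes of peptide supply and loading. Of 25 tested, 16 were lower at 1 week (median -0.13) and 24 at 3 weeks (median -0.33), with 0 called by edgeR. At an unadjusted p under 0.05, 1 and 7 were lower, beside 9.16% and 11.2% of all genes. Psmb10 had no row. At 1 week Pdia3, a chaperone of peptide loading, had a log2 fold change of -0.35 ± 0.14 and the class I gene RT1-M10-1 one of 0.48 ± 0.22 (edgeR adjusted p = 0.184 and 0.251). At 3 weeks RT1-T24-3 and RT1-T24-4 had -0.72 ± 0.22 and -0.33 ± 0.12 (edgeR adjusted p = 0.0932 and 0.124). RT1 genes are near copies of one another, so reads may have been split between them and these values are uncertain for single class I genes.

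The same holds for RT1-Db1, whose neighbour RT1-Db2 is a near copy. RT1-Db2 had between 0.464% and 10.1% as many reads as RT1-Db1 in the 12 libraries, with the lowest share in the second 3wk SBI + Lac library and the highest in the first 3wk SBI library. Its log2 fold changes were -0.71 at 1 week and -1.81 at 3 weeks (edgeR adjusted p = 0.547 and 0.163), so adding its reads would not turn the sign of RT1-Db1. Class II chains are highly polymorphic between rat haplotypes; whether reads of the rats of each pool matched the reference equally well was not tested.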

How the data were processed

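RNA of the pubocaudalis was sequenced as 12 stranded poly(A) libraries in 4 groups of 3, each library a pool of 2 rats per the labels; the study's legend calls the pools technical replicates, whereas the labels name different rats in each. The authors deposited a table of raw gene counts. The 1-week columns hold whole counts as deposited, and the 3-week columns the authors deposited hold decimals, taken here as estimated counts and rounded before testing, although whole counts had been planned for. Salmon is named in the submitters' processing notes without version or role; genome build and annotation are not given in the sources used here. Fold changes within a time point compare libraries with values of the same kind. The tests on all 12 libraries, however, take their spread from the libraries of both weeks.

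edgeR 4.0.16 (R 4.3.3) was fitted on all 12 libraries and 4 groups: TMM, filterByExpr (14599 of 30206 genes), robust quasi-likelihood F test and Benjamini-Hochberg adjustment over all genes tested. Called means adjusted p under 0.05 and absolute log2 fold change over 1. SEs came from the fold change and the F statistic. CPM are TMM-scaled, and mean and SD are over 3 libraries; log2 CPM used a prior count of 2. DESeq2 1.42.0, other scalings and filters, thinning, and leaving out each library were alternatives. Depth terms, thinning and scaling by library total were chosen later, with the values known. P-values measure the spread between pools. Limits for a count of 0 (3 counts) cover counting error only. The scripts were tested on simulated counts.

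The 10 genes, the lists and the markers were chosen with earlier results of these data known. Named from each pathway list were genes past both cutoffs, otherwise the 2 with the smallest p at each week; further markers are named where a value turned on them. Some genes of the lists are not reported here. CPM of different genes are not compared, since no gene lengths were used. Promoter windows were RefSeq's, build GRCr8, searched on both strands.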

Additional observations from a re-analysis of the deposited data

How the results depend on the processing

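The number of the 10 class II genes called was 0 in each of the 5 comparisons under all alternatives tried. The median log2 fold change of the 10 stayed negative in both lactation comparisons under each alternative. Leaving out 1 library gave medians from -0.707 to -0.514 at 1 week, from -0.859 to -0.157 at 3 weeks and from -0.31 to 0.511 for the difference of both effects; the highest of the last 2 came without the third 3wk SBI library, which also turned RT1-DMa and Cd86 at 3 weeks (ranges over the left-out libraries -0.636 to 0.178 and -0.489 to 0.0387). Scaling by the library total alone moved the median of all genes to -0.25 at 1 week and -0.20 at 3 weeks, and the class II genes then lay at -0.86 and -0.80, or -0.61 and -0.60 relative to all genes. Thinning to equal depth left medians of -0.635 and -0.602.

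Libraries with the same number correlated at -0.05 to -0.23 between groups, so the numbers, which stand for different rats, do not pair them. With the replicate block the medians were -0.626, -0.547 and, for the difference, 0.098, and 0 of 10 genes were called. Flt3 at 3 weeks and Cd68 at 1 week then had adjusted p of 0.0648 and 0.0714. Over all genes, calls went from 37 to 8 at 1 week and from 108 to 64 at 3 weeks.

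With 3 pools per group and SEs of 0.19 to 0.39 on the log2 scale at 1 week for genes other than Cd80, differences of the size seen did not pass the adjusted cutoff in the fits on all 12 libraries, whereas at 1 week 7 genes (DESeq2) and 3 genes (edgeR) had an adjusted p under 0.05 in fits on 6 libraries. Cd80 had 0 to 39 counts per library.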
